A study of Homo sapiens with 6 samples.

Results

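Integrin subunits, laminin chains, other basement membrane genes and focal adhesion kinases, 44 genes in all, were followed in the MDA-MB-231 cell line. The rule is a list of gene names with no threshold on a measured value, but the list was chosen with earlier results of these data known. Each of the 44 symbols was found among the 24462 gene symbols of the count files. Enough counts for a test were present for 28 of them, against 12650 genes tested in all. In the libraries with the miR-200a mimic, the integrin subunit gene ITGB4 and the kinase gene PTK2B were 2.85-fold and 2.18-fold higher than with the NC mimic, and both were lower again in libraries labelled miR-200a plus ELK3. In those same libraries the laminin chain gene LAMA3 was lower than in either other group, 4.19-fold below miR-200a and 3.51-fold below the NC mimic. COL4A2 was likewise lower there than in either other group, by a smaller amount.

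MDA-MB-231 is a mesenchymal-like human line of triple-negative breast cancer, and RNA was taken 48 h after transfection with a lipid reagent. One group of 2 libraries received the NC mimic, a control small RNA. The miR-200a group of 2 libraries received the miR-200a mimic, and the last group of 2 received the mimic and a plasmid for the transcription factor ELK3. The labels give 100 nM of mimic and 30 ng of plasmid, and the plasmid carries the ELK3 coding region without its 3′UTR. All groups are of 1 cell line. No empty plasmid is named for the other groups, so plasmid delivery and ELK3 itself cannot be told apart. The sources do not say that the libraries of a group came from separate cultures, so each p-value measures the spread between libraries, which may be technical.

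The libraries held 3055915 to 4868004 counts. Of 4 mesenchymal markers 3 were tested, and their summed level was 2969 and 3241 CPM (counts per 1000000) with the NC mimic, 2768 and 2938 after miR-200a, and 2192 and 1249 in libraries labelled miR-200a plus ELK3. There, relative to miR-200a, edgeR called CD44 (log2 fold change −0.61, adjusted p = 0.0151) and FN1, which is also among the matrix genes, lower, and VIM was at −0.66 (adjusted p = 0.0918), called by DESeq2. Of 7 luminal epithelial markers 5 were tested, the receptor gene ESR1 having 0 counts in all 6 libraries, and their sums were 109 and 104 CPM, 163 and 164, and 125 and 124. With miR-200a all 5 were above 0 on the log2 scale, as were 5973 of all 12650 tested genes. Of the 5, 0 were called by edgeR, against 0.269% of all genes, although 3 had an unadjusted edgeR p under 0.05, against 9.24%. DESeq2 called EPCAM and limma CDH1. EPCAM had 39 and 40 counts, then 140 and 140, and 93 and 72. CDH1 had 1 and 0 counts, then 11 and 12, and 3 and 3, so with the NC mimic it lay below the floor of 3 counts. These markers moved with the groups, and their part in the results was not tested. PTPRC and PECAM1, which mark leukocytes and endothelium, had at most 13 counts. The NC mimic libraries had 618 and 509 counts of ELK3, those of miR-200a 493 and 505, and it was at 406 and 337 in libraries labelled miR-200a plus ELK3. ELK3 was thus not higher where the plasmid had been added (log2 fold change against miR-200a −0.23 ± 0.15 SE, adjusted p = 0.354, edgeR), and it was lower there than with the NC mimic (−0.79, adjusted p = 0.0117). Since the plasmid lacks the 3′UTR, counts at the native transcript end may not read it and are no check of the label. These 2 libraries also differed from each other more than other replicates did, by 0.559 on the log2 CPM scale (root mean square over genes) against 0.403 and 0.342.

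Integrins are pairs of an α and a β chain that span the cell membrane and hold the cell to the matrix outside it. Laminins are assembled from an α, a β and a γ chain, and together with type IV collagen, nidogens and the heparan sulfate proteoglycans they form the sheet under epithelial cells called the basement membrane. Inside the cell, bound integrins recruit the focal adhesion kinases, the kinase ILK and the adaptor paxillin, whereas the integrin of the α6 and β4 chains anchors to keratin filaments in hemidesmosomes. The miR-200 family is known for keeping cells epithelial, and ELK3 is a factor of the ETS family that the study examines as a target of miR-200a.

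A microRNA pairs mainly through its seed, so the mimic's sequence is shown with the matches to it among the tested genes. Seed bases 2 to 8 are in capitals in the first line, and the matching bases CAGTGTT are in capitals in the others. The microRNA is from RefSeq (GRCh38.p14, chr1:1167916-1167937, plus strand), and the 3′UTR matches are from GENCODE 29 transcripts on GRCh38, each on the plus strand with 8 flanking bases on either side.
miR-200a-3p: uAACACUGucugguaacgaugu
ELK3 at chr12:96269668-96269674: tgcttaatCAGTGTTaaactgct
ITGA1 at chr5:52956530-52956536: caggatttCAGTGTTttgttctg
ITGA6 at chr2:172504123-172504129: tacgatgaCAGTGTTccccgata
ITGA6 at chr2:172505850-172505856: ggttataaCAGTGTTtaaagtct
ITGA6 at chr2:172505938-172505944: tactttgaCAGTGTTtttagacc
ITGAV at chr2:186680305-186680311: ttaatactCAGTGTTttggagag
ITGAV at chr2:186680836-186680842: aactggtaCAGTGTTctgcttga
Among the 28 tested genes of the group, 3 held a match (10.7%), against 2216 of 11238 tested genes with a 3′UTR in the annotation (19.7%), and the median 3′UTR lengths were 1051.5 and 1123 bases. None was found in the 3′UTRs of ITGB4, PTK2B, LAMA3, LAMA5, LAMB2, LAMB3, ITGA2, ITGA3, COL4A1, COL4A2 or PTK2. The promoters from RefSeq (GRCh38.p14, 250 bases before to 50 after the start) were on hand for 21 of the 28. The ETS-type letters CCGGAAG, on either strand, were in 2 of them (9.52%, ITGB5 and LAMA5), against 19.6% of 9373 tested genes, and the E-box CACCTG, also on either strand, was in 5 (23.8%) against 18%. These matches are letters in a window and not shown to be sites.

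Levels are given as CPM, counts set to a library total of 1000000 and scaled between libraries by the TMM method. QuantSeq counts the 3′ end of each transcript, so a level was not divided by gene length and is compared here between libraries and not between genes. A gene was called where edgeR's quasi-likelihood test gave a Benjamini-Hochberg adjusted p under 0.05 over all 12650 genes. In a culture measured as a whole, fewer cells with a transcript and less of it in each cell cannot be told apart.

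The summed level of the 44 genes was 4602 and 4626 CPM with the NC mimic, 5171 and 5102 after miR-200a, and 4168 and 4008 in libraries labelled miR-200a plus ELK3. The 3 groups did not overlap, but the sum is weighted to the most counted genes. With miR-200a against the NC mimic, 15 of the 28 tested genes were above 0 and 13 below (median log2 fold change 0.04). LAMB3 alone had a mean of 316 CPM with the NC mimic and 485 after miR-200a. The laminin chains made 848 and 862 CPM with the NC mimic, 1051 and 1045 after miR-200a, and 879 and 819.5 in libraries labelled miR-200a plus ELK3. The other basement membrane proteins were close in the first groups, at 430.5 and 428 CPM and then 438 and 429, and were at 295 and 309 in libraries labelled miR-200a plus ELK3.

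**Figure D1:**
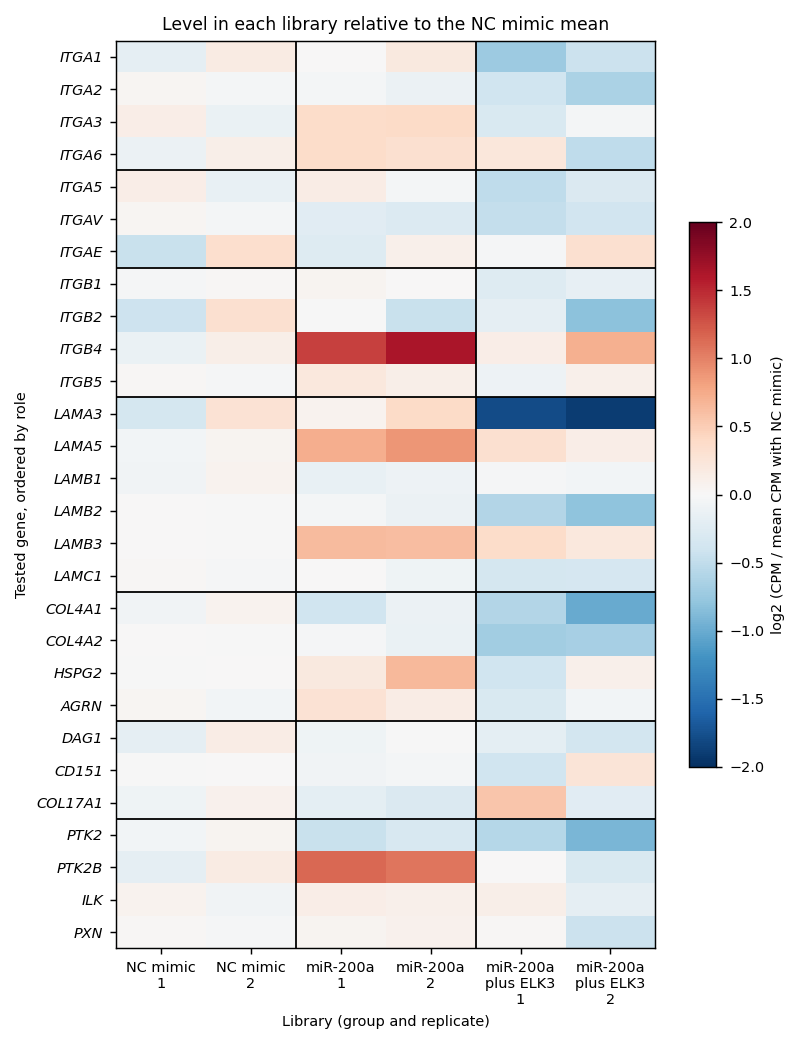
Colours give the log2 CPM of each of the 28 tested genes (rows, by role) in each of the 6 libraries (columns) relative to the mean of the NC mimic libraries. ITGB4 and PTK2B stand highest in the miR-200a libraries, and LAMA3 stands lowest in libraries labelled miR-200a plus ELK3, at 3.79 and 3.53 CPM.

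With miR-200a against the NC mimic, the comparison asks what the mimic alone did, and 2 of the 28 tested genes were called (7.14%), ITGB4 and PTK2B, both higher. Over all tested genes 0.269% were called, 0.213% higher and 0.0553% lower. Because the list was chosen with earlier results of these data known, shares set against all genes are a description and not an independent test. At an unadjusted p under 0.05 there were 6 of the 28 (21.4%), against 9.24% of all genes. The median log2 fold change of the 28 was 0.04 with 15 above 0, and that of all genes was −0.02. The study names limits on p, fold change and normalized level without giving the kind of p. They were read here as an unadjusted edgeR p under 0.05, a fold change over 1.5 and a mean log2 abundance above 3. These limits called 4 of the 28 (14.3%) against 4.57% of all genes, with LAMA5 and LAMB3 added. The spread came from all 6 libraries, and the calls depended on which library was left out, with none of them held in every such fit. Each of these fits leaves 1 library in a group. Over them the median log2 fold change of the 28 ranged from −0.0315 to 0.0889.

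Between libraries labelled miR-200a plus ELK3 and those with miR-200a alone, the comparison asks what the plasmid changed, and 8 of 28 were called (28.6%), all lower. They were ITGA2, ITGA3, ITGB4, LAMA3, LAMA5, LAMB2, COL4A2 and PTK2B. Over all genes 12.9% were called, 7.03% higher and 5.91% lower. At an unadjusted p under 0.05 there were 15 of the 28 (53.6%) against 30.6%. By those limits there were 6 (21.4%) against 19.1%, with ITGA1 among them and ITGA2, ITGA3 and LAMA5 not. The median log2 fold change of the 28 was −0.37, with 24 below 0, and that of all genes was 0.02. Without either NC mimic library 3 genes were called (ITGB4, LAMA3 and PTK2B), without either miR-200a library 0, and without replicate 1 or 2 of libraries labelled miR-200a plus ELK3, 19 and 18.

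Set against the NC mimic, libraries labelled miR-200a plus ELK3 had 6 of 28 called (21.4%), all lower. They were ITGA2, LAMA3, LAMB2, COL4A1, COL4A2 and PTK2. Over all genes 12.9% were called, 6.92% higher and 5.95% lower. At an unadjusted p under 0.05 there were 10 of the 28 (35.7%) against 30.6%. By those limits there were 5 (17.9%) against 19.4%, without ITGA2. The medians were −0.18 for the 28, with 22 below 0, and 0.01 for all genes. Here too none of the calls held in every leave-one-out fit, and the median log2 fold change of the 28 ranged from −0.288 to −0.15 over those fits. In the fits without a library labelled miR-200a plus ELK3, the calls within each of the 3 comparisons were not all in the same direction. Because the 3 comparisons share libraries, they are not independent of each other.

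**Figure D2:**
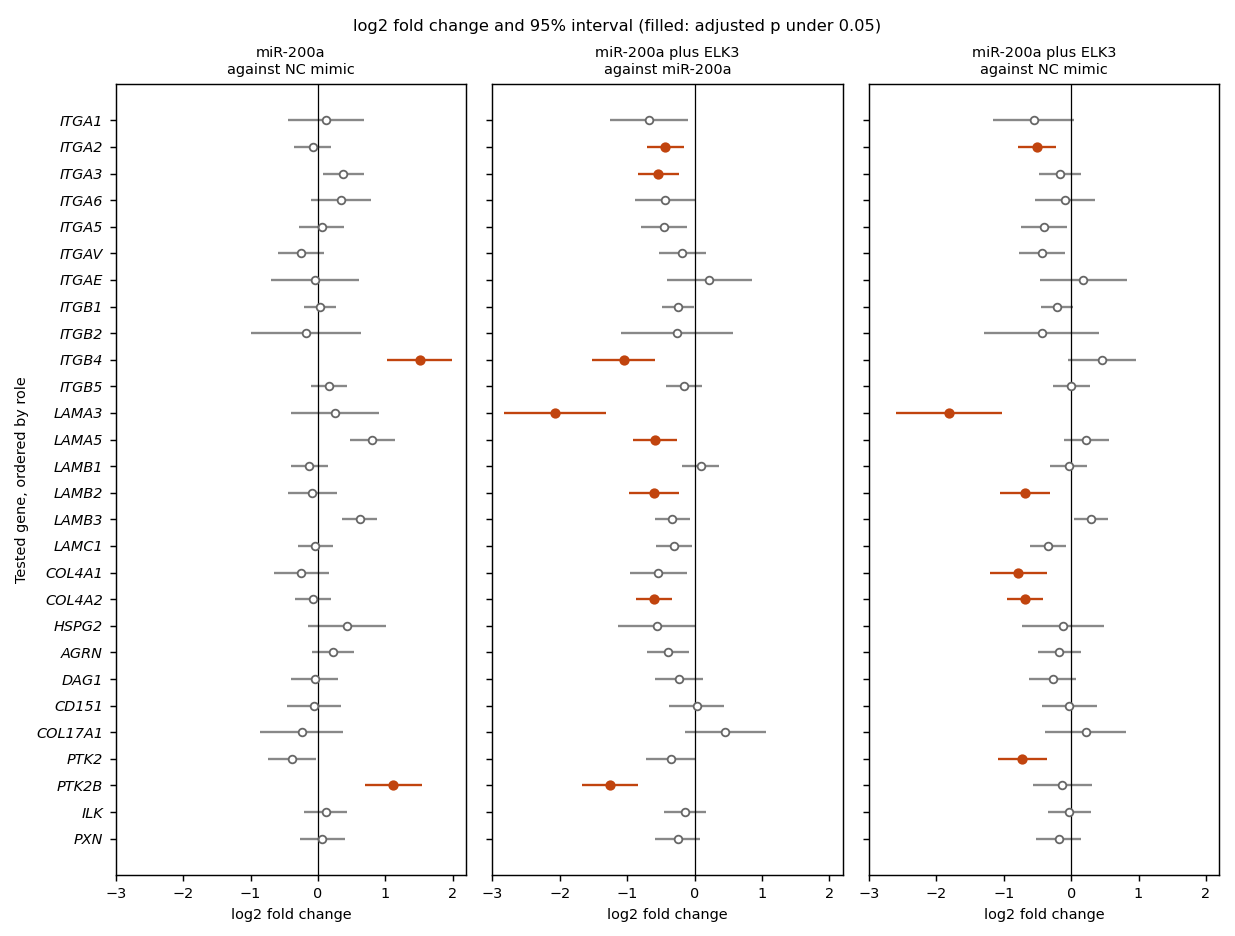
Points are log2 fold changes of the 28 tested genes with 95% confidence intervals from edgeR, in 3 panels for the 3 comparisons, with called genes filled. In the second panel 24 of 28 points lie below 0, and LAMA3 lies farthest down at −2.07.

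Of the α chains that bind laminins and collagens, 4 of 7 were tested. Between libraries labelled miR-200a plus ELK3 and those of miR-200a, all 4 had a log2 fold change below 0 (median −0.49). So did 6174 of all 12650 tested genes. ITGA2 and ITGA3 passed the test, 2 of 4 (50%) against 12.9% of all genes. ITGA2, the collagen receptor chain, was at 327 and 313 CPM with the NC mimic, 311 and 295.5 after miR-200a, and 243 and 206 in libraries labelled miR-200a plus ELK3. The last pair lay below all 4 others. Its log2 fold changes were −0.43 ± 0.13 (SE, adjusted p = 0.0488) against miR-200a and −0.51 ± 0.13 (adjusted p = 0.0278) against the NC mimic, and −0.08 (adjusted p = 0.917) between miR-200a and the NC mimic. The call against miR-200a was lost with DESeq2 (adjusted p = 0.0632), with the compared groups alone (0.11) and with limma (0.123), and held in 5 of 14 alternatives, and that against the NC mimic held in 8.

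ITGA3, a laminin receptor chain that pairs with β1, was at 373 and 310.0 CPM with the NC mimic, 438 and 447 after miR-200a, and 277 and 332 in libraries labelled miR-200a plus ELK3. The miR-200a libraries were the highest, and the other groups overlapped. It was called in 1 comparison, the fall from miR-200a to miR-200a plus ELK3 (log2 fold change −0.54 ± 0.14, adjusted p = 0.031), and had 0.37 ± 0.14 (adjusted p = 0.433) between miR-200a and the NC mimic. The call held in 7 of 14 alternatives. ITGA6, whose chain forms laminin receptors with β1 or β4, was at 409 and 483 CPM, then 574 and 556, and 524 and 314 in libraries labelled miR-200a plus ELK3. The last libraries lay on both sides of the NC mimic, and no comparison was called (adjusted p = 0.676, 0.175 and 0.8). This gene, with 3 seed matches, had a log2 fold change of 0.34 ± 0.20 with miR-200a, above 0. That rise was called in 3 of 14 alternatives, among them the compared groups alone (0.36, edgeR adjusted p = 0.000557). It was 0.36 without replicate 1 of the last group and 0.37 without replicate 2. In the same fits, the last group's log2 fold change from the NC mimic lay on either side of 0, at −0.50 and 0.23. ITGA1, the other collagen-binding chain and a bearer of 1 seed match, was at 13.1 and 16.6 CPM, 15.0 and 17.1, and 9.0 and 11.1. It was not called, with a log2 fold change of −0.68 ± 0.26 in the last group against miR-200a (SE, edgeR adjusted p = 0.113). The limits read from the study called it there.

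The other α chains tested bind fibronectin and vitronectin through an RGD motif (ITGA5 and ITGAV) or E-cadherin (ITGAE), and 0 of 3 were called in any comparison by edgeR, DESeq2 or limma. At an unadjusted edgeR p under 0.05 there were 0, 1 (ITGA5) and 2 (ITGA5 and ITGAV) in the order of the comparisons. Over all genes the unadjusted shares were 9.24%, 30.6% and 30.6%, and edgeR called 0.269%, 12.9% and 12.9%. ITGA5, the fibronectin receptor chain and the most counted of them, was at 162 and 133 CPM with the NC mimic, 163 and 144 after miR-200a, and 104 and 121 in libraries labelled miR-200a plus ELK3. The last libraries were the lowest, but the difference from miR-200a did not pass (log2 fold change −0.45, adjusted p = 0.0757). ITGAV, with 2 seed matches, was at 57.7 and 55.1 CPM with the NC mimic and 48.4 and 46.5 after miR-200a, a log2 fold change of −0.25 that was not called. In libraries labelled miR-200a plus ELK3 it was at 40.5 and 43.2 CPM, below the other 4, and its log2 fold change against the NC mimic of −0.43 was not called either (adjusted p = 0.0938). ITGAE ranged from 14.5 to 25.1 CPM over the 6 libraries.

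Of 8 β chains 4 were tested, and ITGB4 was the one called. Its chain pairs with α6 and is the hemidesmosome integrin. This was 1 of 4 (25%) with miR-200a, against 0.269% of all genes, and 1 of 4 between miR-200a plus ELK3 and miR-200a, against 12.9%. ITGB4 was at 24.7 and 29.4 CPM with the NC mimic (27.0 ± 3.29, SD, n = 2), 69.55 and 83.5 after miR-200a (76.6 ± 9.89), and 29.6 and 44.4 in libraries labelled miR-200a plus ELK3 (37.0 ± 10.5). The miR-200a libraries lay above all others. The log2 fold change was 1.51 ± 0.22 (SE, adjusted p = 0.0293) with miR-200a, a 2.85-fold difference, and −1.05 ± 0.21 (adjusted p = 0.0139) in libraries labelled miR-200a plus ELK3 against it, which is 2.07-fold lower. Between those libraries and the NC mimic it was 0.46, with a 95% interval of −0.04 to 0.97 (adjusted p = 0.199). The rise kept its direction in each leave-one-out fit, from 1.37 to 1.64, but its adjusted p reached 0.576 when 1 of the 4 compared libraries was left out. The rise was called in 9 of 14 alternatives and the fall in 11. The last 1000 bases of ITGB4 overlap GALK1 on the opposite strand, which was at 8.56 to 12.6 CPM and not called.

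ITGB1, the common partner of most α chains and the most counted gene of the group, was at 689 and 712 CPM with the NC mimic and 726 and 705 after miR-200a. The groups overlapped, and the log2 fold change of 0.03 had a 95% interval of −0.21 to 0.27. In libraries labelled miR-200a plus ELK3 it was at 589 and 623 CPM, below the other 4, with a log2 fold change of −0.24 against miR-200a that did not pass (adjusted p = 0.16). ITGB5, a vitronectin receptor chain, was at 285 to 352 CPM and ITGB2, the leukocyte β chain, at 5.17 to 11.4, and neither was called.

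Of 10 laminin chains 6 were tested. Of the genes for chains of epithelial laminins, LAMA3 was lowest in libraries labelled miR-200a plus ELK3, whereas LAMA5 and LAMB3 were highest with miR-200a. LAMA3, an α chain of the laminin of epithelial anchorage, gave 46 and 49 counts in the NC mimic group, 66 and 84 after miR-200a, and 16 and 15 in libraries labelled miR-200a plus ELK3. In CPM these were 10.2 and 16.0, 13.7 and 17.1, and 3.79 and 3.53, so the last libraries lay below the others. The log2 fold change was −2.07 ± 0.34 against miR-200a (SE, adjusted p = 0.00652) and −1.81 ± 0.35 against the NC mimic (adjusted p = 0.0114). Between miR-200a and the NC mimic it was 0.26 (adjusted p = 0.861), with the groups overlapping. Its fall kept its direction in every leave-one-out fit, from −2.22 to −1.89 against miR-200a and −2.12 to −1.48 against the NC mimic, with adjusted p of up to 0.093 and 0.126.

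LAMA5, the α chain of laminins common in adult epithelia, was at 57.7 and 62.3 CPM with the NC mimic, 99.45 and 110.2 after miR-200a, and 74.6 and 65.6 in libraries labelled miR-200a plus ELK3. The 3 groups did not overlap, with miR-200a the highest. The difference between miR-200a and the NC mimic missed the threshold in edgeR (log2 fold change 0.81 ± 0.15, adjusted p = 0.0715), whereas the fall from miR-200a to miR-200a plus ELK3 passed (−0.58 ± 0.15, adjusted p = 0.0305) and held in 7 of 14 alternatives. The last bases of LAMA5 overlap ADRM1 on the opposite strand, which was higher in libraries labelled miR-200a plus ELK3 than in those of miR-200a (0.72, adjusted p = 0.0117), and whether reads were counted by strand is not given in the sources used here.

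LAMB3, the β chain that joins LAMA3 in epithelial laminin, was at 318.5 and 313 CPM with the NC mimic, 488 and 482 after miR-200a, and 409 and 364 in libraries labelled miR-200a plus ELK3. The order of the groups was that of LAMA5, again without overlap. No comparison passed in edgeR, at log2 fold changes of 0.62 ± 0.12 (adjusted p = 0.0715), −0.33 ± 0.12 (adjusted p = 0.0864) and 0.29 (adjusted p = 0.12). When either library labelled miR-200a plus ELK3 was left out, both LAMA5 and LAMB3 were called higher with miR-200a. DESeq2 called both as well (adjusted p = 0.0155 for LAMA5 and 0.0153 for LAMB3), and each was called in 5 of 14 alternatives.

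LAMB2, the β chain of vascular and neuromuscular basement membranes, was at 50.3 and 49.6 CPM with the NC mimic, 48.6 and 45.9 after miR-200a, and 33.4 and 28.7 in libraries labelled miR-200a plus ELK3. The last libraries were the lowest, at −0.61 ± 0.17 against miR-200a (adjusted p = 0.0408) and −0.69 ± 0.17 against the NC mimic (adjusted p = 0.0274) on the log2 scale. The call against miR-200a was lost with DESeq2 (adjusted p = 0.076), with the compared groups alone (0.0963) and with limma (0.089), and held in 6 of 14 alternatives, and that against the NC mimic in 8. LAMC1, the γ chain shared by most laminins, was at 252 and 245 CPM, 249.8 and 234, and 194 and 198, with a log2 fold change of −0.30 against miR-200a (adjusted p = 0.112). LAMB1, its usual β partner, ranged from 149 to 173 CPM and was not called.

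**Figure D3:**
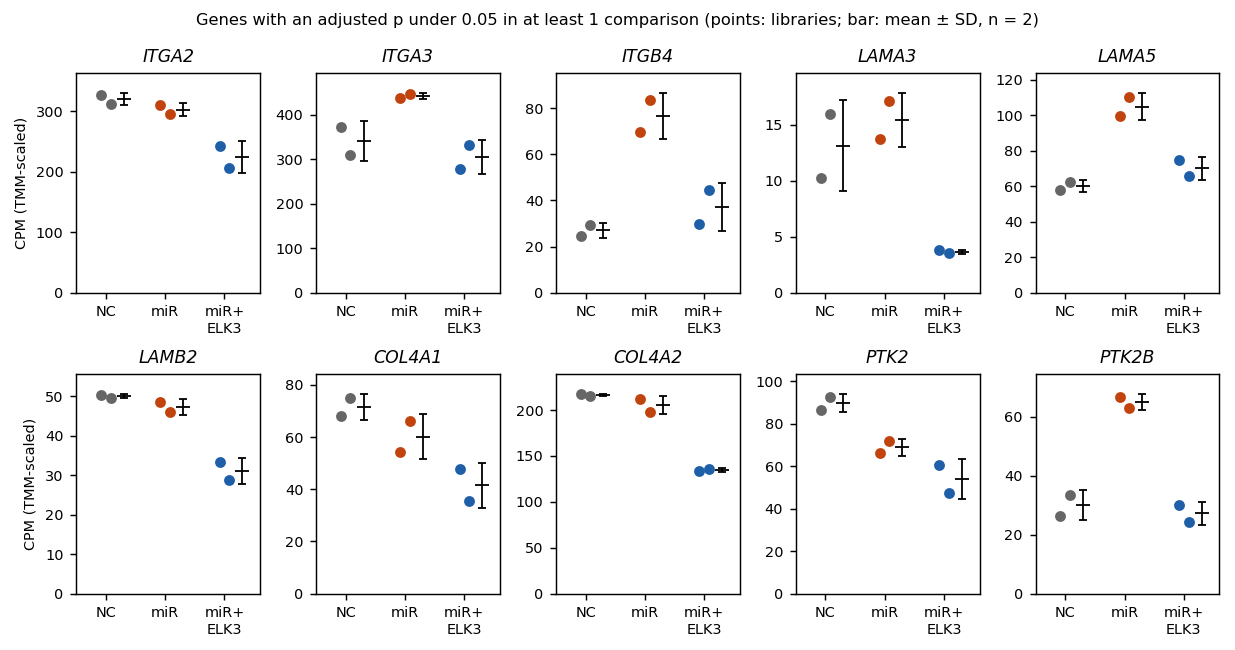
Each panel gives the CPM of 1 gene in the 6 libraries (points), with mean ± SD (n = 2) beside each group, for the 10 genes called in at least 1 comparison. ITGB4 and PTK2B peak with miR-200a, whereas ITGA2, LAMA3, LAMB2 and COL4A2 were not called between the NC mimic and miR-200a groups and are lower in libraries labelled miR-200a plus ELK3.

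Among the other basement membrane proteins, 4 of 6 were tested. By their fold change all 4 were lower in libraries labelled miR-200a plus ELK3 than after miR-200a (median log2 fold change −0.55). So were 6174 of all 12650 tested genes. COL4A2 passed, 1 of 4 (25%) against 12.9% of all genes. COL4A1 and COL4A2 encode the chains of the main type IV collagen and lie head to head. COL4A2 was at 217 and 216 CPM with the NC mimic, 213 and 198 after miR-200a, and 134 and 136 in libraries labelled miR-200a plus ELK3. The last libraries were below all others, at −0.61 ± 0.12 (adjusted p = 0.0137) and −0.68 ± 0.12 (adjusted p = 0.00798) on the log2 scale. These calls held in 8 and 11 of 14 alternatives. COL4A1 was at 68.15 and 75.05 CPM, 54.2 and 66.2, and 47.6 and 35.5. Its fall against the NC mimic passed (−0.78 ± 0.19, adjusted p = 0.0256), and that against miR-200a did not (−0.54 ± 0.19, adjusted p = 0.0861). The COL4A1 call held in 8 of 14 alternatives and was lost with the compared groups alone and with limma. AGRN, which encodes the proteoglycan agrin, ranged from 101 to 152 CPM, and HSPG2, which encodes perlecan, from 12.6 to 25.9 CPM, neither being called.

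Of the partners at the basement membrane, 0 of 3 were called by edgeR, DESeq2 or limma, and 0 had an unadjusted p under 0.05. In the order of the comparisons, edgeR called 0.269%, 12.9% and 12.9% of all genes, and 9.24%, 30.6% and 30.6% had such a p. CD151, the tetraspanin that binds laminin receptors, was at 261 and 265 CPM with the NC mimic and 250.2 and 255 after miR-200a. In libraries labelled miR-200a plus ELK3 it was at 201 and 316, on either side of all other libraries. Its log2 fold change against miR-200a was 0.03 (adjusted p = 0.926) and depended on the library: 0.31 without replicate 1 and −0.36 without replicate 2, both called. CD151 overlaps POLR2L at its end, which was higher in these libraries than with miR-200a (0.62, adjusted p = 0.0302). COL17A1, a transmembrane collagen of hemidesmosomes, was at 17.1 to 22.2 CPM in the first 4 libraries and 30.8 and 17.9 in the last 2. DAG1, dystroglycan, ranged from 71.9 to 103 CPM.

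Of the intracellular genes, PTK2 encodes focal adhesion kinase and PTK2B its relative PYK2. PTK2B was at 26.5 and 33.6 CPM with the NC mimic (30.1 ± 5.03, SD, n = 2), 66.9 and 63.0 after miR-200a (64.9 ± 2.75), and 30.1 and 24.4 in libraries labelled miR-200a plus ELK3 (27.3 ± 3.99). The miR-200a libraries lay above all others, and the other groups overlapped. The log2 fold change was 1.12 ± 0.19 with miR-200a (SE, adjusted p = 0.0463) and −1.25 ± 0.19 in libraries labelled miR-200a plus ELK3 against it (adjusted p = 0.00446), which is 2.38-fold lower. Between those libraries and the NC mimic it was −0.13, with a 95% interval of −0.57 to 0.31. The rise was 0.95 to 1.29 in the leave-one-out fits, with an adjusted p of up to 0.661. The rise was called in 7 of 14 alternatives and the fall in 11.

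PTK2 was at 86.6 and 92.7 CPM with the NC mimic, 66.0 and 71.7 after miR-200a, and 60.6 and 47.5 in libraries labelled miR-200a plus ELK3. The groups did not overlap, but of the 3 comparisons 1 passed, the fall between the last group and the NC mimic (−0.73 ± 0.16, adjusted p = 0.0205). The call held in 8 of 14 alternatives and was lost with the compared groups alone and with limma. With miR-200a against the NC mimic the PTK2 log2 fold change was −0.38 (adjusted p = 0.517). ILK, the integrin-linked kinase, ranged from 120 to 148 CPM. PXN, paxillin, was at 314 and 301.5 CPM, 318.5 and 326, and 314 and 229, and neither gene was called.

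Within a library, the share of a gene among related genes does not depend on the scaling between libraries. These shares were chosen after the values had been seen and carry no test. PTK2B made 23.4% and 26.6% of PTK2 and PTK2B counts with the NC mimic, 50.3% and 46.8% after miR-200a, and 33.2% and 34.0% in libraries labelled miR-200a plus ELK3. ITGB4 had 6.04 and 6.09 counts per 100 of ITGA6, then 12.1 and 15.0, and 5.65 and 14.15 in the last libraries, which fell on both of the earlier levels. LAMA3 made 15.1% and 20.4% of LAMA3 and LAMA5 counts, then 12.1% and 13.4%, and 4.83% and 5.10%. LAMB3 made 60.5% and 58.4% of LAMB1 to LAMB3 counts, 71.2% and 70.7% after miR-200a, and 67.5% and 66.0% in the last libraries.

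**Figure D4:**
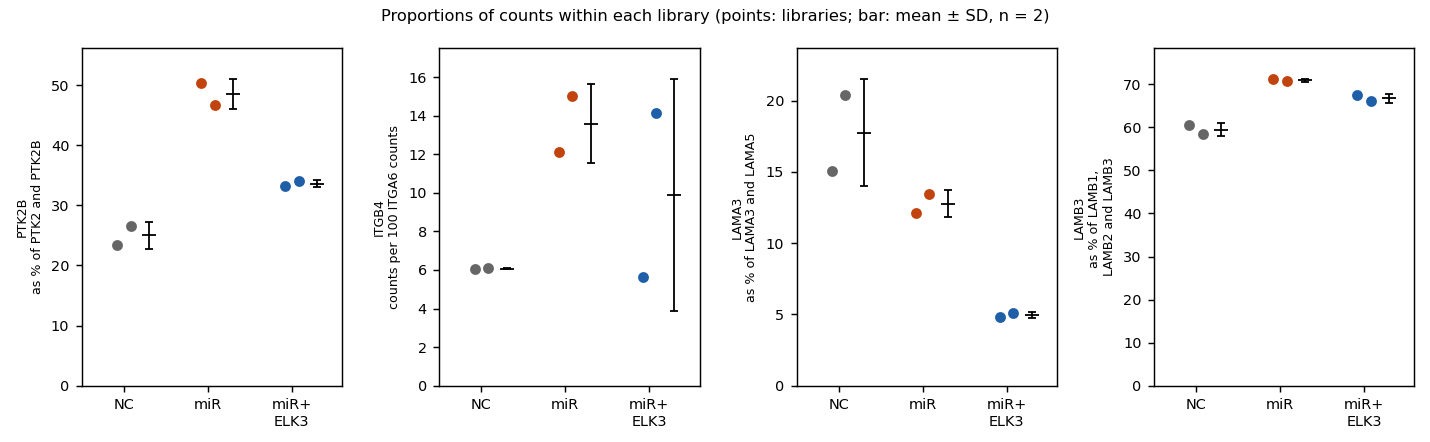
Points are shares or ratios of counts within each of the 6 libraries, with mean ± SD (n = 2) beside each group, on linear axes from 0. The share of PTK2B is highest with miR-200a (50.3% and 46.8%), and that of LAMA3 is lowest in libraries labelled miR-200a plus ELK3 (4.83% and 5.10%).

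Another 16 genes had too few counts to be tested: ITGA4, ITGA7, ITGA8, ITGA9, ITGA10, ITGA11, ITGB3, ITGB6, ITGB7, ITGB8, LAMA1, LAMA2, LAMA4, LAMC3, NID1 and NID2. None had more than 8 counts in any library. In 7 of them no library passed the floor of 3 counts, which is 0.616 to 0.982 CPM, and ITGA8 had 0 counts throughout. At this depth differences in these genes were not detectable. The floors cover counting error only. All 28 tested genes had at least 10 counts in each library, so none entered the test through 1 group alone.

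Other genes of the same structures were read from lists. Of 30 other focal adhesion genes 28 were tested. FERMT1, a kindlin that activates integrins, was at 17.2 and 15.7 CPM with the NC mimic, 40.9 and 41.6 after miR-200a, and 54.0 and 59.9 in libraries labelled miR-200a plus ELK3, and was the 1 of 28 called with miR-200a, against 0.269% of all genes (1.32 ± 0.18, adjusted p = 0.0245). It was also higher in the last group than with the NC mimic (1.79, adjusted p = 0.000613). Between the last group and miR-200a, the adaptor CRK was higher (0.79, adjusted p = 0.0104) and tensin TNS1 lower (−1.60, adjusted p = 0.0403), 2 of 28 (7.14%) against 12.9% of all genes, and DESeq2 did not call TNS1. Against the NC mimic, 3 were higher (FERMT1, FLNA and CRK) and 2 lower (TNS3 and NEDD9), 5 of 28 (17.9%) against 12.9% of all genes. There DESeq2 did not call CRK and gave no adjusted p for NEDD9.

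Of 23 other matrix and collagen-processing genes, 17 were tested. With miR-200a against the NC mimic 0 were called by edgeR, DESeq2 or limma, and 3 (17.6%) had an unadjusted edgeR p under 0.05, against 9.24% of all genes. In libraries labelled miR-200a plus ELK3, 3 (17.6%) were lower than with miR-200a and 4 (23.5%) lower than with the NC mimic, against 5.91% and 5.95% of all genes, with none called higher. FN1, which encodes fibronectin, the ligand of the ITGA5 integrin, was at 491.5 and 478 CPM with the NC mimic, 321 and 322 after miR-200a, and 119 and 96.4 in libraries labelled miR-200a plus ELK3. Each group lay below the one before, and the difference between the last groups passed (−1.58, adjusted p = 0.000288). The others lower against miR-200a were THBS1 (−1.06, adjusted p = 0.00789), a matricellular protein, and P4HA1 (−0.77, adjusted p = 0.0155), a subunit of collagen prolyl hydroxylase, and COL7A1 joined them against the NC mimic (−0.87, adjusted p = 0.0118). Of 6 hemidesmosome plaque and keratin genes 4 were tested, and 0 were called with miR-200a against the NC mimic, where 0.269% of all genes were. The keratin KRT18 was called by edgeR, higher in libraries labelled miR-200a plus ELK3 than in those of miR-200a (0.52, adjusted p = 0.0385). It was also higher there than with the NC mimic (0.69, adjusted p = 0.0146). In each of these comparisons it was 1 of 4 (25%), against 12.9% of all genes, and DESeq2 did not call it against miR-200a. The keratin KRT8 was at −0.48 against miR-200a and was not called (edgeR adjusted p = 0.0806).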

How the data were processed

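For every one of the 6 QuantSeq 3′ libraries the authors deposited raw counts by gene symbol, with no normalization. The submitters' processing notes name Bowtie2, edgeR and the build hg19 without versions, and the paper names ExDEGA. The counting program, the annotation and whether strand was used are not given in the sources used here. Each file lists 25737 lines and 24462 symbols, and 286 symbols on several lines were summed. The groups follow the sample titles. The analysis used R 4.3.3, with edgeR 4.0.16 in 1 fit of all 6 libraries (TMM, filterByExpr with a minimum count of 10, quasi-likelihood test, 3 residual degrees of freedom), with DESeq2 1.42.0 and limma 3.58.1 as alternatives.

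The genes of the group and the other lists were chosen with earlier results of these data known. Values in every library are given for each gene with an adjusted p under 0.05 in a comparison, for LAMA5, ITGB4 and PTK2B, and for the gene with the most counts in each role. The other genes given library by library, such as ITGA1, ITGAV and LAMC1, and the pathway genes named with values were chosen after their values were seen. Replicate libraries differed by more than sampling noise, and each was counted as 1 sample. That spread does not show that they came from separate cultures. A value of 3 counts was taken as the floor of each library. Seed matches were searched in the 3′UTRs of GENCODE 29 on GRCh38, and no coordinates of the count files were used. Protein sequences are not used here.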

Additional observations from a re-analysis of the deposited data

How the results depend on the processing

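Over the named genes and 3 comparisons, 530 alternative values kept their direction and side of the threshold, 43 newly passed, 86 no longer passed and 12 turned in sign. The 530 include values that were not called and stayed so, and thus do not measure how often a call held. The calls themselves held in 5 of 14 alternatives (ITGA2 against miR-200a) to 12 of 14 (LAMA3 in both of its comparisons). With miR-200a set against the NC mimic, genes of the group called and all genes called were 4 and 88 by DESeq2, 4 and 230 without a filter, 7 and 983 with the 2 compared groups alone, 0 and 4 by limma, and 4 of the group by the limits read from the study. For miR-200a plus ELK3 against miR-200a they were 3 and 542 with the compared groups alone and 1 and 107 by limma, with 2490 genes called without a filter. For miR-200a plus ELK3 against the NC mimic they were 2 and 587 with the compared groups alone and 1 and 391 by limma, with 2525 genes called without a filter. Leaving out each library in turn gave 0 to 7, 0 to 19 and 0 to 14 genes of the group, and 0 to 1010, 31 to 4684 and 96 to 4675 genes in all, in the order of the comparisons. A lone library was taken to vary like the others. Requiring 10 counts in each library or upper-quartile normalization left 2, 8 and 6.

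Libraries with the same replicate number did not deviate together (r = −0.00299, −0.0357 and −0.108), so the numbers were not taken as pairs. With the replicate block, 1 gene of the group and 13 genes in all were called for miR-200a against the NC mimic, 4 of the group for miR-200a plus ELK3 against miR-200a, and 6 against the NC mimic. With the numbers of the last group crossed, a fit chosen after seeing the data, the first comparison had 1 and 22.

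The sign of the log2 fold change turned in leave-one-out fits for LAMA3 (−0.052 to 0.59) and ITGA5 (−0.078 to 0.21) in the first comparison, and for CD151 between miR-200a plus ELK3 and miR-200a (−0.36 to 0.31). CD151 there also turned with upper-quartile normalization (−0.0345) and by limma (−0.088). In the last comparison it turned for CD151 (−0.40 to 0.27), ITGA6 (−0.50 to 0.23), PTK2B (−0.30 to 0.041) and PXN (−0.42 to 0.014). The causes were not tested.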
